A study of Homo sapiens with 6 samples.

Results

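The circadian clock genes described here were 10 genes of the daily timekeeping loop and its close output, PER1, PER2, PER3, CRY1, CRY2, CLOCK, ARNTL, NR1D1, NR1D2 and BHLHE40, taken by symbol from the 26255 genes listed for each library. All 10 were listed. RNA with a poly(A) tail was sequenced from HCT116, a widely used epithelial cell line grown from a human colorectal carcinoma. Per the labels, 3 libraries came from ZsGreen fluorescence-negative and 3 from ZsGreen fluorescence-positive HCT116 cells, and the series title describes cells transduced with the degron of ornithine decarboxylase, used as models of cancer stem cells. ZsGreen is a green fluorescent protein, and proteins joined to that degron are broken down by the proteasome. The labels name no treatment and no hour of harvest or synchronisation of the cells, and they do not say how the groups were separated, whether they are clones, or whether the libraries came from separate cultures. P-values therefore rest on the spread among these 6 libraries alone, and that spread may be technical.

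In the clock, CLOCK and ARNTL (also called BMAL1) form a pair of transcription factors that binds E-boxes in DNA and drives the PER, CRY and NR1D genes. PER and CRY proteins return to the nucleus and block that pair, while NR1D1 and NR1D2 (the REV-ERB receptors) repress ARNTL, so that transcripts of the loop rise and fall over the day. BHLHE40 (DEC1) is itself switched on by the pair and competes for E-boxes. In the intestine, clock genes are known to cycle in epithelial cells and to pace their renewal.

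Promoter windows of PER1, PER2, CRY1, NR1D2 and BHLHE40 are shown as background. Any link between their letters and the RNA levels was not tested. The windows are those of RefSeq on GRCh38.p14, from 250 bases before to 50 bases after each annotated start, 5′ to 3′ on the gene's strand, and all 10 members were matched (ARNTL under its newer symbol), with 15 windows in all. The files were made on hg19, so no position here is theirs. Capitals mark matches on either strand to the E-box CACGTG, the E'-box CACGTT, the D-box TTATGTAA, the ROR element TAGGTCA or the cAMP response element TGACGTCA. None of these 5 strings is part of another. Each printed window holds an E-box or an E'-box, and the other windows, including all those without a match, are not printed.
PER1, chr17:8152355-8152654, minus strand: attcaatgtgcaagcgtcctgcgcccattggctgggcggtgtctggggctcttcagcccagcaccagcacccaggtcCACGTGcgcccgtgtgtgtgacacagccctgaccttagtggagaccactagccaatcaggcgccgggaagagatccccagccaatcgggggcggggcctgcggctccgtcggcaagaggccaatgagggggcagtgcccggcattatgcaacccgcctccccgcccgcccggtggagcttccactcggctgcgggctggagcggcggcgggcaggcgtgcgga
PER2, chr2:238288561-238288860, minus strand: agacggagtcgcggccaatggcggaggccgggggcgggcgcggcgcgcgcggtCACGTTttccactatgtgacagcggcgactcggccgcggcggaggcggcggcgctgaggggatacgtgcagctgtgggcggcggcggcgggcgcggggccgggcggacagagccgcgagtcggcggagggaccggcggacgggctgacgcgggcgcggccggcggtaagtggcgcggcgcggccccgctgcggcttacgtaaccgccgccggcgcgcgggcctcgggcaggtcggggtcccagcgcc
CRY1, chr12:107093500-107093799, minus strand: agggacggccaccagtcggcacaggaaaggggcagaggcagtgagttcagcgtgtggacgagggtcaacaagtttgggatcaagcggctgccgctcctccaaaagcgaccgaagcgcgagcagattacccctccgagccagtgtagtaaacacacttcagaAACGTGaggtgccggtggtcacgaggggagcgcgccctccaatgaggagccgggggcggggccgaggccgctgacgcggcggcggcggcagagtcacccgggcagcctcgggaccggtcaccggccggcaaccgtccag
NR1D2, chr3:23945871-23946170, plus strand: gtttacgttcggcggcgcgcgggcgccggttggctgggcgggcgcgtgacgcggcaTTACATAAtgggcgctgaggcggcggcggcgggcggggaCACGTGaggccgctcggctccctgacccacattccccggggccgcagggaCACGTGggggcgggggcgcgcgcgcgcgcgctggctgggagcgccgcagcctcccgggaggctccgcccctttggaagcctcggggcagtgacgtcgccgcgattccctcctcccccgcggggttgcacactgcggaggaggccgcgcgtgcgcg
BHLHE40, chr3:4979187-4979486, plus strand: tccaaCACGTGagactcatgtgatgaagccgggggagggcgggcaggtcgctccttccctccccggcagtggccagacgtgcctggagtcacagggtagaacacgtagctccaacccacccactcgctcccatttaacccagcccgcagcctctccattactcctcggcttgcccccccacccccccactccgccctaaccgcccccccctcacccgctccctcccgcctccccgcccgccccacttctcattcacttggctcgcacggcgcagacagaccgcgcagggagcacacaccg

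The E-box was found in 3 of the 15 member windows, those of PER1, BHLHE40 and NR1D2, and in 7.26% of 35116 RefSeq windows of that length. Members with 2 annotated starts have 2 windows each, so the 15 are not independent. It begins 173 bases before the annotated start of PER1, 245 before that of BHLHE40, and 155 and 105 bases before the start of NR1D2 shown here. The E'-box was found in 5 of the 15, from PER2, CRY1, CRY2, CLOCK and NR1D1 (5.34% of all windows). The D-box, read by DBP, TEF, HLF and NFIL3, was in 2 of the 15, from PER3 and NR1D2 (0.886% of all windows). The ROR element, read by the ROR and NR1D receptors, was in 2 of the 15, from CRY2 and ARNTL (1.85%). The cAMP response element was in none of the 15 member windows (1.85% of all windows). These shares were not adjusted for base composition. The member windows with an E-box or E'-box held 63% to 80.3% G and C, beside a median of 58.7% over all windows. A match describes letters only, and for the 5 members with 2 annotated starts the start used in these cells was not measured.

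Every clock gene of the 10 that could be tested was lower in ZsGreen-positive than in ZsGreen-negative cells. Of the 10 members, 9 had a mean of at least 1 FPKM (fragments per kilobase of transcript and 1000000 mapped fragments) over the 6 libraries and were tested, and all 9 fell, with 0 higher. Over all 12213 genes tested, 59.4% were called, 30.0% as lower and 29.4% as higher. Between the groups, the 9 fell to 16.5% to 48.1% of the ZsGreen-negative mean, and 8 of them by at least 2-fold on the log2(FPKM + 1) scale, which 8.34% of all tested genes did. For each of these 9 genes every ZsGreen-positive value lay under every ZsGreen-negative one, as it did for 34.5% of all tested genes. The median log2 fold change of the 9 tested members was -1.36, beside 0.0040 for all tested genes. The members were chosen with earlier results of these data known, so this comparison describes them and is no test of the set. The test throughout was limma on log2(FPKM + 1), two-sided, with Benjamini-Hochberg adjustment over all tested genes and a threshold of 0.05. Log2 fold changes are ZsGreen-positive minus ZsGreen-negative on this scale, with their SE, and means are given with SD over n = 3 libraries per group.

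**Figure D1:**
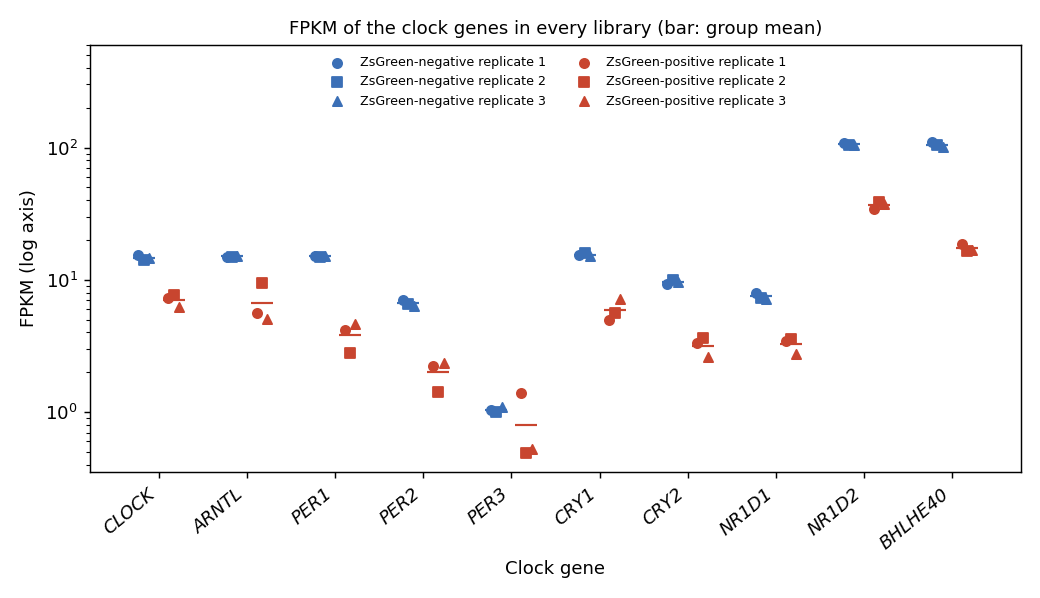
FPKM of the 10 clock genes (log axis) in each of the 3 ZsGreen-negative (blue) and 3 ZsGreen-positive (red) libraries, with a bar at each group mean. In 9 genes every red point lies below every blue point, and for PER3 the points overlap.

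Because these are bulk libraries, fewer cells that express a gene and less RNA per cell cannot be told apart. A list of 6 genes of cycling cells (MKI67, TOP2A, CDK1, CCNB1, MCM2 and PCNA) moved the other way: all 6 rose, and their summed FPKM was 128.5 to 139 in the ZsGreen-negative and 489 to 550.2 in the ZsGreen-positive libraries. The part of this difference in the clock values was not tested. Of 8 colon epithelial markers 6 reached 1 FPKM, with summed FPKM of 4243 to 4310 against 3146 to 3578. CDX1 was listed at 0 in all libraries and VIL1 at 0 or near it. CDH1, which encodes E-cadherin, fell (49.8 ± 0.455 to 17.4 ± 1.42 FPKM) with KRT8 and KRT18, while EPCAM and CDX2 rose and KRT19 did not pass. Summed FPKM of 6 fibroblast markers was 2.35 to 2.50 against 0.731 to 1.19, with COL1A2, DCN and LUM at 0 in all libraries. Summed FPKM of 6 leukocyte markers was 2.99 to 3.94 against 0.471 to 4.42, with CD3E at 0 throughout. The 4 endothelial markers summed to at most 0.310 FPKM in any library.

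Library depth could be read from the FPKM values of 4 libraries, where low values pile up at what a single fragment is worth. It was about 9500000 to 9950000 fragments in the ZsGreen-negative libraries and 12200000 in ZsGreen-positive replicate 1. ZsGreen-positive replicates 2 and 3 stood apart: 12 and 6 genes lay at the commonest low value, against 62 to 100 in the other libraries, and no depth was read. They also listed more genes at 0, 11624 and 11989 against 8985 to 10314. With both left out, the same fit still placed 9 members lower and 0 higher, the single ZsGreen-positive library being assumed to vary like the ZsGreen-negative ones. For the 5 members with 1 annotated transcript, the 4 readable libraries held an estimated 115 to 5638 fragments per gene, with a counting error of 9.31% to 1.33%. These errors cover counting only.

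By point estimate the activators CLOCK and ARNTL fell the least of the 9, together with NR1D1. CLOCK, a DNA-binding factor with acetyltransferase activity, gave FPKM of 15.4, 14.0 and 14.5 in ZsGreen-negative libraries and of 7.27, 7.65 and 6.21 in ZsGreen-positive ones. The ZsGreen-positive values were thus near 48.1% of the other group and close to one another. Its log2 fold change was -0.96 ± 0.099 (adjusted p = 0.000147), a 2.08-fold lower mean.

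ARNTL, the partner of CLOCK, gave FPKM of 14.9, 15 and 15.2 in ZsGreen-negative libraries and of 5.63, 9.38 and 5.04 in ZsGreen-positive ones. Replicate 2 was the high ZsGreen-positive library, at 62.4% of the ZsGreen-negative mean against 37.5% and 33.5% in the others, and still below every ZsGreen-negative one. The log2 fold change of ARNTL was -1.10 ± 0.20 (adjusted p = 0.00211), with the widest interval of the 9 members, -1.56 to -0.64.

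Of the paralogues of the activators, ARNTL2 moved the other way, while NPAS2 was not called in either direction. ARNTL2 (BMAL2), which can replace ARNTL as a partner of CLOCK, gave FPKM of 4.72, 4.49 and 4.68 in ZsGreen-negative libraries and of 7.23, 6.80 and 6.72 in ZsGreen-positive ones. It rose, with no overlap of the groups (log2 fold change 0.49 ± 0.094, adjusted p = 0.00312). NPAS2, which can stand in for CLOCK, was at 1.15, 1.26 and 1.39 against 1.38, 0.598 and 0.647 FPKM, and did not pass (log2 fold change -0.29 ± 0.21, adjusted p = 0.263). ZsGreen-positive replicate 1 decided that value: without it the log2 fold change of NPAS2 was -0.48 (limma adjusted p = 0.0377). With it as the only ZsGreen-positive library the log2 fold change was 0.076. Over the alternatives the log2 fold change of NPAS2 ran from -0.57, with a pseudocount of 0.1, to 0.076.

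The repressors PER1 and PER2 fell further than the activators by point estimate. PER1, which is also quickly induced by cAMP and glucocorticoid signals, gave FPKM of 15.2, 14.8 and 15.1 in ZsGreen-negative libraries and of 4.17, 2.77 and 4.62 in ZsGreen-positive ones. Its log2 fold change of -1.74 ± 0.15 (adjusted p = 6.87e-05) placed it among the lowest 1.65% of tested genes. PER2, a scaffold of the repressor complex, was at 6.98, 6.59 and 6.38 against 2.22, 1.43 and 2.34 FPKM. Both were lowest in ZsGreen-positive replicate 2, a library whose depth was not read. CRY2, CLOCK, ARNTL, NR1D1 and NR1D2 were highest of their group in that library. The log2 fold change of PER2 was -1.37 ± 0.15 (adjusted p = 0.000215). The E-box of PER1 and the E'-box of PER2 are the capitals in the windows shown above.

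PER3, the member of the PER family least needed for the rhythm, was the only clock gene with overlapping groups. It gave FPKM of 1.03, 1.01 and 1.09 in ZsGreen-negative libraries and of 1.39, 0.488 and 0.523 in ZsGreen-positive ones, a mean over all 6 libraries just below the minimum for testing. ZsGreen-positive replicate 1 was above every ZsGreen-negative library, and the other ZsGreen-positive libraries were below all of them. With no minimum its log2 fold change was -0.22 ± 0.20 (limma adjusted p = 0.437). PER3 shares 868 exonic bases with UTS2 on the opposite strand, a gene whose FPKM ran from 0 to 0.251 in ZsGreen-negative libraries and was 0.562, 1.8 and 0 in ZsGreen-positive ones. Whether the authors counted by strand is not given in the sources used here, so the share of UTS2 in the PER3 values was not tested.

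Both cryptochromes, the flavoproteins that hold the CLOCK and ARNTL pair inactive, fell to a similar extent. CRY1 gave FPKM of 15.4, 15.9 and 15.2 in ZsGreen-negative libraries and of 4.99, 5.61 and 7.14 in ZsGreen-positive ones (log2 fold change -1.27 ± 0.12, adjusted p = 0.000116). CRY2 was at 9.29, 9.93 and 9.67 against 3.30, 3.61 and 2.60 FPKM (log2 fold change -1.36 ± 0.12, adjusted p = 7.42e-05). ZsGreen-positive replicate 3 held the highest CRY1 and the lowest CRY2 of its group.

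Of the nuclear receptors that repress ARNTL, NR1D2 was far more abundant than NR1D1 in both groups. NR1D2 (REV-ERB beta) gave FPKM of 108, 105 and 105 in ZsGreen-negative libraries and of 34.2, 38.9 and 37.3 in ZsGreen-positive ones (log2 fold change -1.503 ± 0.065, adjusted p = 3.02e-06). Its ZsGreen-positive libraries were the most alike of the 9 tested members, with a coefficient of variation of 6.48%. NR1D1 (REV-ERB alpha) was at 7.95, 7.30 and 7.20 against 3.42, 3.58 and 2.75 FPKM (log2 fold change -1.002 ± 0.12, adjusted p = 0.000299). NR1D1 shares 263 exonic bases at its end with THRA, a thyroid hormone receptor gene on the opposite strand. THRA itself gave FPKM of 9.71, 8.78 and 8.86 in ZsGreen-negative libraries and of 10.2, 8.17 and 12.4 in ZsGreen-positive ones. Its part in the NR1D1 values, should reads have been counted without strand, was not tested.

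RORA and RORB, receptors that activate ARNTL through the same element, were hardly detected. RORA was at 0.0367 to 0.145 FPKM in every library and RORB was listed at 0 in all 6. Neither reached the minimum for testing.

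BHLHE40 was the clock gene with the largest fall. It gave FPKM of 111, 105 and 100.1 in ZsGreen-negative libraries and of 18.7, 16.6 and 16.8 in ZsGreen-positive ones, 6.07-fold lower on the mean. Its log2 fold change of -2.54 ± 0.074 (adjusted p = 6.71e-07) had an interval of -2.71 to -2.36, which met that of no other member, and only 0.418% of tested genes had a value as low or lower. BHLHE41 (DEC2), its paralogue, gave FPKM of 0.777, 0.681 and 0.535 in ZsGreen-negative libraries, and was listed at 0.0852, 0 and 0 FPKM in ZsGreen-positive ones. The tested genes closest to BHLHE40 in profile over the 6 libraries, by root mean square distance of centred log2(FPKM + 1), were SQSTM1 (0.050), IFIT1 (0.068) and OASL (0.082). SQSTM1 encodes the autophagy receptor p62, and IFIT1 and OASL are interferon-stimulated genes. Their log2 fold changes were -2.50, -2.55 and -2.42, near that of BHLHE40 because of how they were picked. Shared regulation was not tested.

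**Figure D2:**
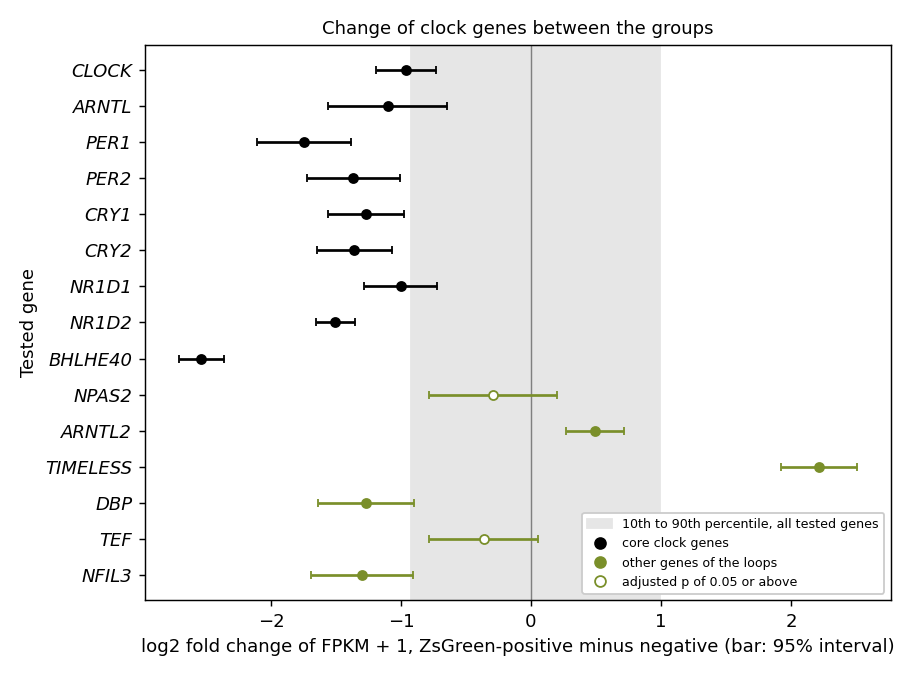
Log2 fold change of FPKM + 1 with its 95% interval for the 9 tested members (black) and the 6 tested genes of the list of other loop genes (green; open where the adjusted p was 0.05 or above), over the 10th to 90th percentile of all tested genes (grey, -0.92 to 0.99). All 9 black points lie below the grey band, BHLHE40 farthest at -2.54, while ARNTL2 and TIMELESS lie above 0.

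By level, NR1D2 and BHLHE40 led in the ZsGreen-negative libraries and their ranges met (105 to 108 and 100.1 to 111 FPKM). CRY1 followed, then ARNTL, PER1 and CLOCK with ranges that met in that order, then CRY2, NR1D1, PER2 and PER3, each apart from the next. In the ZsGreen-positive libraries the ranges of NR1D2 (34.2 to 38.9 FPKM) and BHLHE40 (16.6 to 18.7 FPKM) no longer met. CLOCK, ARNTL and CRY1 came next with ranges that met in that order, followed by PER1, NR1D1 and CRY2, whose ranges likewise met. PER2 and PER3 were again the lowest.

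The spread between ZsGreen-positive libraries was larger for all 9 tested members. The coefficient of variation was 0.963% to 5.41% among the ZsGreen-negative and 6.48% to 35.2% among the ZsGreen-positive libraries. How many of all tested genes share this was not counted, so it is not read as particular to the clock genes. Outside the members, all 16 reported clock targets described below showed it too. So did all 6 tested colon epithelial markers, among them KRT19 (0.449% against 6.30%). Genes without it included NR3C1 (9.42% against 5.17%), SIK3, USP2 and SFPQ. Members did not share a high or a low library: ZsGreen-positive replicate 2 was the highest for 5 of the 10 and the lowest for 4.

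**Figure D3:**
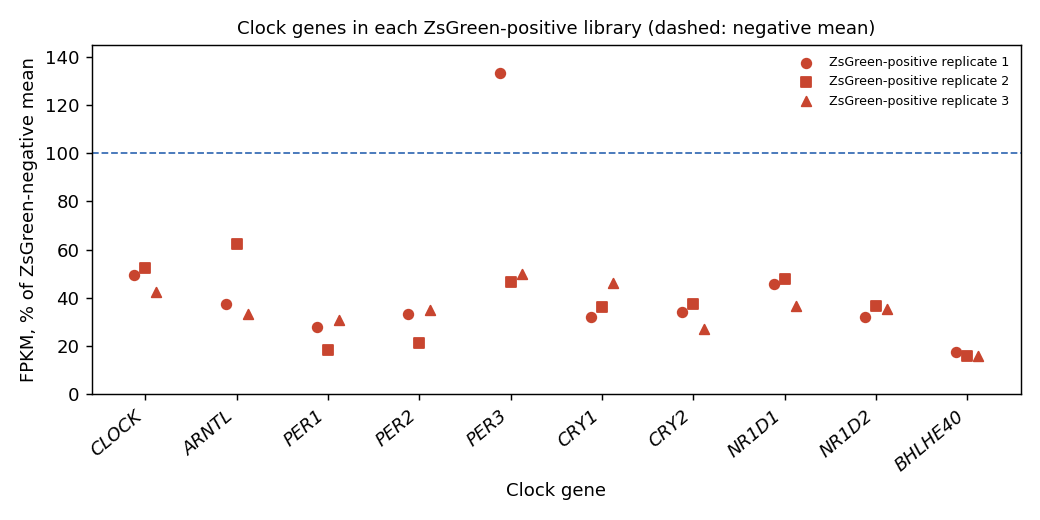
FPKM of each clock gene in the 3 ZsGreen-positive libraries as a percentage of the ZsGreen-negative mean (dashed line at 100). All points but PER3 in replicate 1 (133%) lie below the line, and replicate 2 is low for PER1 (18.5%) and PER2 (21.5%) and high for ARNTL (62.4%).

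Ratios of paired genes were compared within each library, since FPKM is per length. There were 4 pairs, tested by exact permutation (two-sided, on log2 ratios of FPKM + 1 and of FPKM itself, adjusted over the 4), and 3 against 3 cannot go below p = 0.1. The FPKM of PER1 was 2.18, 2.24 and 2.36 times that of PER2 in the ZsGreen-negative and 1.88, 1.94 and 1.98 times in the ZsGreen-positive libraries. The groups did not overlap. The log2 of these ratios differed by -0.23 (exact permutation p = 0.1, adjusted p = 0.4), and with 1 added to each FPKM, which weighs on the lower gene most, by -0.38 (exact permutation p = 0.1, adjusted p = 0.2). NR1D1 was 0.0737, 0.0693 and 0.0686 times NR1D2 in the ZsGreen-negative and 0.10, 0.0920 and 0.0736 times in the ZsGreen-positive libraries. As a ratio of FPKM the groups overlapped slightly, at 0.0737 and 0.0736, and the log2 ratio differed by 0.32 (exact permutation p = 0.2, adjusted p = 0.4). With 1 added to each FPKM the difference was 0.50 (exact permutation p = 0.1, adjusted p = 0.2) and with 5 added 0.81, so its size depends on the pseudocount.

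CRY1 was 1.66, 1.60 and 1.57 times CRY2 in the ZsGreen-negative and 1.51, 1.56 and 2.75 times in the ZsGreen-positive libraries. The difference in log2 ratio was 0.21 without and 0.092 with 1 added to each FPKM (exact permutation p = 1 for both), and its sign rested on ZsGreen-positive replicate 3, without which the latter was -0.13. ARNTL was 0.971, 1.07 and 1.05 times CLOCK in the ZsGreen-negative and 0.775, 1.23 and 0.811 times in the ZsGreen-positive libraries. Replicate 2 was above and the other ZsGreen-positive libraries below all ZsGreen-negative ones (difference in log2 ratio -0.14, exact permutation p = 0.4). Without that library the difference was -0.32.

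**Figure D4:**
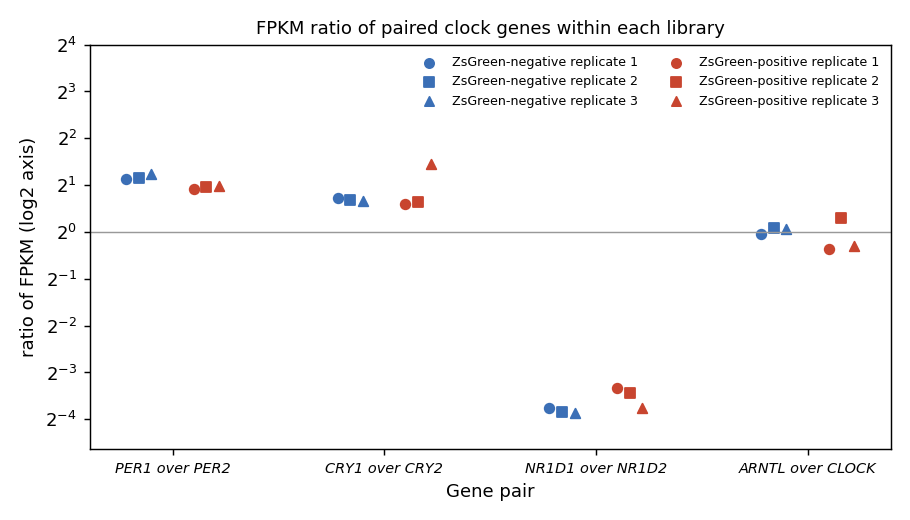
Ratio of FPKM (log2 axis) of PER1 over PER2, CRY1 over CRY2, NR1D1 over NR1D2 and ARNTL over CLOCK in each ZsGreen-negative (blue) and ZsGreen-positive (red) library. The PER1 over PER2 points are apart (2.18 to 2.36 against 1.88 to 1.98), and the red points of CRY1 over CRY2 and ARNTL over CLOCK each have 1 library on the other side of the blue ones.

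The direct output factors of the loop fell in part. DBP, a PAR-domain activator that binds D-boxes and a classical target of CLOCK and ARNTL, gave FPKM of 23.2, 17.6 and 20.4 in ZsGreen-negative libraries and of 6.58, 9.88 and 7.36 in ZsGreen-positive ones (log2 fold change -1.27 ± 0.16, adjusted p = 0.000382). NFIL3 (E4BP4), the repressor that binds the same D-boxes, was at 33.3, 34.1 and 34.1 against 14.5, 16.1 and 9.69 FPKM (log2 fold change -1.30 ± 0.17, adjusted p = 0.000437). The groups of both genes were apart. TEF, a relative of DBP, was at 14.6, 15 and 14.1 against 13.3, 12.9 and 7.93 FPKM, and did not pass although its groups did not overlap (log2 fold change -0.36 ± 0.18, adjusted p = 0.119). HLF, the third PAR-domain factor, was below the minimum for testing, at 1.03, 0.978 and 1.01 against 0.312, 0.273 and 0.559 FPKM. CIART, a repressor of the pair, was at or below 0.316 FPKM in every library.

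TIMELESS moved against the members. It is named after the fly clock gene and acts in human cells at the replication fork. It gave FPKM of 3.07, 3.13 and 2.78 in ZsGreen-negative libraries and of 20.4, 17.4 and 15.2 in ZsGreen-positive ones (log2 fold change 2.22 ± 0.12, adjusted p = 8.26e-06), 5.90-fold higher on the mean. In all, of the 12 other loop genes 6 were tested, 2 rose, 2 fell and 2 did not pass, with a median log2 fold change of -0.33. That is 33.3% of those tested in each direction, close to the 29.4% higher and 30.0% lower over all tested genes.

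Enzymes that modify or degrade clock proteins were mostly lower. Of 19 kinases, phosphatases and ubiquitin enzymes 18 were tested, 13 fell (72.2%), 3 rose (16.7%) and 2 did not pass, with a median of -0.52. Over all tested genes 30.0% were lower and 29.4% higher. USP2, a deubiquitinase of clock proteins, fell from 2.25 ± 0.373 to 0.261 ± 0.0412 FPKM (log2 fold change -1.36 ± 0.17). PRKAA2, a catalytic subunit of the energy sensor AMPK, which marks CRY proteins for breakdown, fell from 6.74 ± 0.216 to 2.28 ± 0.509 FPKM. The other catalytic subunit, PRKAA1, named after its values were seen, did not pass (13.1 ± 0.717 against 14.2 ± 1.09 FPKM). DYRK1A, a kinase of CRY2, fell from 39.5 ± 0.639 to 17.4 ± 1.34 FPKM. PPP5C, a phosphatase that acts on casein kinase 1 epsilon, rose from 17.98 ± 0.672 to 32.7 ± 6.05 FPKM. When libraries were rescaled to sum to 1000000, 8 of this list fell in place of 13.

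Cofactors of clock transcription were called in both directions, as all tested genes were. Of 13 tested, 6 fell (46.2%), 5 rose (38.5%) and 2 did not pass, with a median of -0.14, beside 30.0% lower and 29.4% higher over all tested genes. The acetyltransferase gene EP300 fell from 5.74 ± 0.233 to 2.65 ± 0.812 FPKM and NCOR1, the corepressor recruited by NR1D receptors, from 12.99 ± 0.181 to 6.71 ± 0.556 FPKM. PARP1, which modifies CLOCK, rose from 23.0 ± 0.0168 to 77.2 ± 6.75 FPKM, and the histone methyltransferase gene EZH2 from 7.03 ± 0.425 to 18.4 ± 2.40 FPKM. PARP1 and EZH2 were higher in the same libraries as the genes of cycling cells above, whose part in these rises was not tested.

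Among genes that carry signals to the clock, 9 of 10 were tested, 5 fell (55.6%), 1 rose (11.1%) and 3 did not pass, with a median of -0.69. The shares over all tested genes were 30.0% lower and 29.4% higher. SIK1, the cAMP-induced kinase that limits resetting of the clock, fell from 18.7 ± 1.5 to 1.27 ± 0.211 FPKM (adjusted p = 1.78e-06, log2 fold change -3.12 ± 0.12). NR3C1, the glucocorticoid receptor gene, fell from 15.9 ± 1.5 to 7.05 ± 0.365 FPKM, and SIK3 from 3.89 ± 0.290 to 1.77 ± 0.0176 FPKM. CRTC2, a coactivator of CREB, rose from 2.85 ± 0.269 to 5.92 ± 1.22 FPKM. Its paralogues, named after their values were seen, went the other way. CRTC3 fell from 3.56 ± 0.270 to 1.82 ± 0.192 FPKM, and CRTC1, below the minimum for testing, was at 0.791 ± 0.0363 against 0.257 ± 0.195 FPKM.

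Reported targets of the clock were mostly lower. All 16 were tested, of which 11 fell (68.8%), 2 rose (12.5%) and 3 did not pass, with a median log2 fold change of -0.96. Beside them, 30.0% of all tested genes were lower and 29.4% higher. KLF10, a Krüppel-like repressor, fell from 81.9 ± 1.63 to 21.1 ± 2.25 FPKM. PPARA, a nuclear receptor of fat metabolism, fell from 8.08 ± 0.480 to 1.59 ± 0.513 FPKM. NAMPT, the rate-limiting enzyme of NAD salvage, fell from 78.4 ± 0.905 to 26.2 ± 2.13 FPKM. The 2 that rose, named after their values were seen, were CIRBP and RBM3, which encode cold-inducible RNA-binding proteins. CIRBP was at 174 ± 1.15 against 245 ± 12.7 FPKM and RBM3 at 50.6 ± 0.963 against 91.1 ± 5.79 FPKM.

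**Figure D5:**
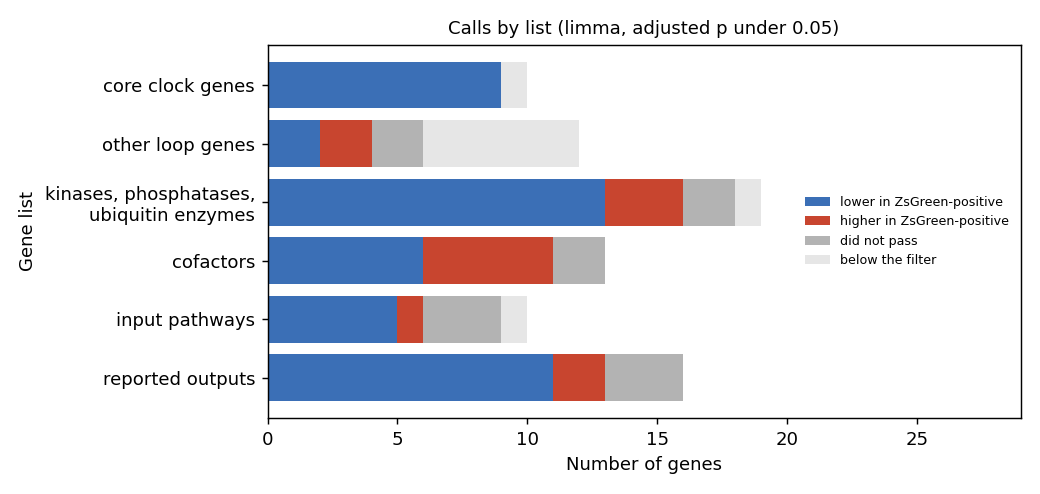
Number of genes of each list that were lower (blue), higher (red), did not pass (grey) or were below the minimum mean of 1 FPKM (light grey). The core clock genes are 9 lower and 1 untested, the other loop genes are 2 lower and 2 higher, and the cofactors 6 lower and 5 higher.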

How the data were processed

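The authors deposited 1 table of FPKM per library. Per the submitters' processing notes, build hg19, Cuffdiff 2.2.1, TopHat2 2.1.1, SAMtools 0.1.18 and Bowtie2 2.2.8 were used. For their settings, the annotation, the scaling and the use of strand, nothing is given in the sources used here. Per the labels' protocols, a stranded poly(A) kit was used on RNA from TRIzol and a miRNeasy Micro column. FPKM holds no counts, so no count model was run. limma 3.58.1 in R 4.3.3 (eBayes with a trend, 4 residual and 3.22 prior degrees of freedom) was fitted to log2(FPKM + 1) of the 12213 genes with a mean of at least 1. This scale understates changes of low genes. On simulated data for this comparison over 12211 genes, 69% of genes changed by 1 and 92% of those changed by 2 on the log2 scale were recovered. Only 200 genes were changed there, against 59.4% called in the data, and both groups were given the same SD per gene. The recovery in the real comparison may therefore differ. Depth was estimated from 5512 genes with 1 transcript of at least 1000 bases in GENCODE 29, as the commonest low value of FPKM times length. Permutation tests used Python 3.11.15. The members and lists were chosen with earlier results of these data known. The naming rule took all members and other loop genes, and up to 4 passing genes with the largest change from every other list. The alternatives were other pseudocounts, filters, scalings, variance priors, a replicate block and left-out libraries. The values of 2 genes that this rule takes are not reported here.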

Additional observations from a re-analysis of the deposited data

How the results depend on the processing

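The count of clock genes lower stayed at 9 and higher at 0 under 15 of the 16 alternatives run on it, the exception being the filter at 5 FPKM, which left PER2 untested (8 lower). Rescaling every library to a sum of 1000000 moved the median log2 fold change over all genes to 0.14 and made 62.1% of called genes higher (49.5% as deposited), and the tested members kept a median of -1.07. A pseudocount of 5 gave -0.74 for PER2, -0.84 for CRY2, -0.60 for NR1D1, -0.69 for PRKAA2, -0.49 for EP300, -1.92 for SIK1, -0.39 for SIK3, -0.99 for PPARA, 0.31 for ARNTL2 and 0.47 for CRTC2. USP2 moved to -2.70 with a pseudocount of 0.1 and to -0.46 with 5. The log2 ratio difference of NR1D1 over NR1D2 was 0.34 with a pseudocount of 0.1 and 0.81 with 5, and that of PER1 over PER2 -0.25 with 0.1. The ratios without a pseudocount were added after seeing the data and gave each of the 4 differences the same sign. That of CRY1 over CRY2 turned to -0.071 with a pseudocount of 5, ran from -0.13 to 0.22 as single libraries were left out, and was -0.16 without ZsGreen-positive replicates 2 and 3, where NPAS2 also turned to 0.076. With no filter 4 of the other loop genes were lower, BHLHE41 and HLF added. With rescaling to 1000000, 8 kinases, phosphatases and ubiquitin enzymes were lower. With the filter at 5 FPKM, 3 cofactors and 3 input genes were lower and 0 input genes higher, fewer genes being tested. Beyond the alternative's own construction the cause was not tested. Same-numbered libraries did not deviate together (correlations -0.0302 to -0.0209), so these values gave no sign of pairing by number. Whether same-numbered libraries share a culture is not given and cannot be read from these values. A replicate block left 9 members lower and 0 higher, and 3433 genes higher and 3482 lower among all tested. The spread of the ZsGreen-positive libraries and the unread depth of 2 of them limit the precision of genes near 1 FPKM, such as PER3 and NPAS2. The titles follow a different scheme in each group, and group and any batch behind those schemes cannot be told apart.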
